A study of Mus musculus with 7 samples.

Results

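The PRL phosphatase genes Ptp4a1, Ptp4a2 and Ptp4a3, the magnesium transport genes Cnnm1, Cnnm2, Cnnm3 and Cnnm4, and the magnesium channel gene Trpm7 were followed across mouse melanoma cells and mouse endothelial cells. They were found by their symbols in the array annotation. The 8 genes lay on 12 of the 35557 probe sets, and 7 of them had at least 1 unshared probe set and so entered the table of 19938 genes. Ptp4a1 appeared only on 5 probe sets that also list the predicted genes Gm13363 or Gm8783, so its values cannot be assigned to Ptp4a1 alone. The set was chosen by the measured difference of Ptp4a3 between PECAM1+ and PECAM1− samples, joined by the genes of its family and partners. Differences of these genes between PECAM1+ and PECAM1− samples are therefore given as descriptions, with no p-value and no call.

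Each of 7 samples was measured on 1 Affymetrix Mouse Gene 1.0 ST array. B16F10 is a pigmented mouse melanoma cell line. The label PECAM1− was given to the parental B16F10 line and to clone A1 (n = 2), and the label PECAM1+ to the clones A2 to A5 (n = 4). The seventh sample was mouse dermal endothelial cells (MDEC), also labelled positive for PECAM (n = 1). No treatment or engineered allele was given for any sample. B16F10 cells grew in DMEM with serum and MDEC in DMEM with an endothelial growth supplement, so cell type and medium cannot be told apart between them. Each clone is 1 line on 1 array, and the labels did not say whether the clones arose separately or whether samples came from separate cultures. The spread behind the p-values is thus that of these samples, and it may be technical.

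PRL phosphatases are small, prenylated protein tyrosine phosphatases held at membranes, and PRL-3, the product of Ptp4a3, is best known for its high level in metastases and in tumour vessels. PRLs bind the CBS domains of CNNM proteins, membrane proteins that move magnesium or regulate its transport, and this binding alters the magnesium content of cells. TRPM7 is a cation channel fused to a kinase and a main route of magnesium entry.

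Pecam1, which encodes the adhesion receptor used to label the samples, had log2 levels of 11.00 to 11.07 in the PECAM1+ clones, while the parental line read 5.27 and clone A1 5.43. Of 6 endothelial markers, all 6 were higher in MDEC than on every B16F10 array, with a summed log2 level of 64.5 against 28.8 to 29.3. All 6 melanocyte markers were lower in MDEC, with a summed level of 34.1 against 69.9 to 73.1. The 6 leukocyte markers summed to 43.0 in MDEC and to 32.1 to 35.3 in B16F10. Of these 6, 3 were above every B16F10 array, though Itgam barely so, at 4.84 in MDEC and 4.83 in clone A3. Cd53 was at 11.00 and Cd68 at 11.18 in MDEC, while the defining marker Ptprc was at 4.99 there and at 4.96 to 5.15 in B16F10. Within B16F10 the highest leukocyte sum was that of clone A1, where Cd68 was at 10.07, against 7.52 to 8.16 on the other 5 arrays. The part of Cd68 in the differences from clone A1 was not tested. The 6 fibroblast and mural markers summed to 38.8 in MDEC and 37.8 to 42.0 in B16F10, and the 6 keratinocyte markers to 33.0 and 32.8 to 34.0. The 6 fibroblast and mural markers were each higher on average in the PECAM1+ clones, with sums of 39.1 to 42.0 there, 39.9 in the parental line and 37.8 in clone A1, and their part in the differences below was not tested. Clone A1 stood apart: 1310 genes differed by 2-fold or more between it and the average PECAM1+ clone, where 131 did so for the parental line. Differences of the 8 genes are therefore also given against parental cells alone and against clone A1 alone. The array values repeat exactly between arrays for some genes (6.86% to 13.1% of genes in a pair of arrays), so the spread of such genes can be too small.

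Ptp4a3 had the largest difference of the set. Its log2 level was 7.998 in parental cells, 7.17 in clone A1, 9.89 in clone A2, 9.64 in clones A3, A4 and A5, and 10.42 in MDEC. Every PECAM1+ clone was above both PECAM1− samples, and MDEC was above every B16F10 array. The mean was 9.70 ± 0.12 (SD, n = 4) in the PECAM1+ clones and 7.58 ± 0.59 (SD, n = 2) in the PECAM1− samples, a difference of 2.12 ± 0.24 log2 units (SE of the limma fit), or 4.35-fold. The clones lay 1.71 ± 0.13 (SE) above parental cells, which is 3.26-fold, and 2.53 ± 0.13 (SE) above clone A1, which is 5.79-fold. In fits to a lone PECAM1− sample, that sample is assumed to vary like the clones. The absolute difference of Ptp4a3 ranked 24 among the 19938 genes. The set was chosen by this difference, so nothing is read from the rank. In order of level, MDEC came first, then clone A2, then clones A3, A4 and A5, parental cells and clone A1. The gaps between clones A3, A4 and A5 were within the SD of the clones, the value of A3 and A4 being identical, and every other gap in the order was larger than that SD. Between parental cells and clone A1, both PECAM1−, Ptp4a3 was 0.83 lower in clone A1. In bulk arrays such as these, fewer cells with a transcript and less of it per cell cannot be told apart.

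**Figure D1:**
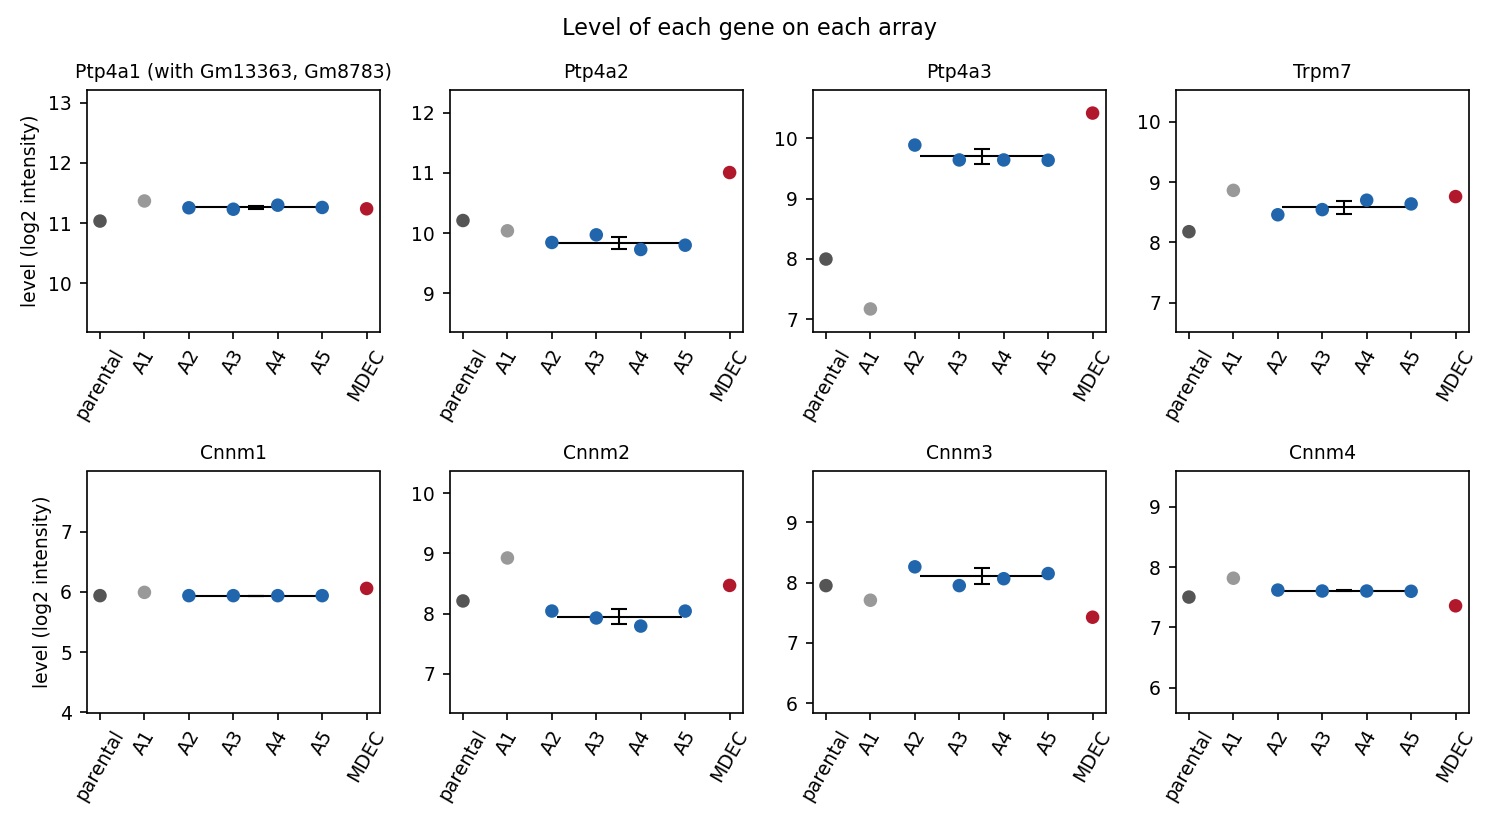
Log2 level (vertical axis, log2 intensity, the same span of 4 units in each panel) of the 8 genes on the 7 arrays (horizontal axis). Dark grey points are parental cells, light grey clone A1, blue the PECAM1+ clones and red MDEC, and the black line and bar give the mean and SD of the 4 PECAM1+ clones. Ptp4a3 is at 9.64 to 9.89 in the blue points and at 7.17 and 7.998 in the grey ones, while Cnnm1 lies between 5.94 and 6.06 on every array.

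Ptp4a2 encodes PRL-2, the close relative of PRL-3 that many tissues express. Its log2 level was 10.21 in the parental line, 10.04 in clone A1, 9.85 in A2, 9.97 in A3, 9.73 in A4, 9.80 in A5 and 11.01 in MDEC. Every PECAM1+ clone was below both PECAM1− samples, the opposite direction to Ptp4a3, but the highest clone (A3) was only 0.07 below clone A1, within the SD of the clones. The difference was −0.29 ± 0.10 (SE), with −0.37 ± 0.11 against parental cells and −0.20 ± 0.11 against clone A1. MDEC was 0.80 above parental cells, the highest B16F10 array.

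The probe sets that list Ptp4a1, the gene of PRL-1, together with predicted genes gave a mean of 11.03 in parental cells, 11.37 in clone A1, 11.25 in A2, 11.23 in A3, 11.30 in A4, 11.26 in A5 and 11.24 in MDEC. Parental cells were the lowest and clone A1 the highest of the 7 arrays on all 5 probe sets. The PECAM1+ clones lay between them, 0.23 above parental cells and 0.11 below clone A1, and MDEC lay within the range of the clones. Of the 5 probe sets, 3 list both Gm13363 and Gm8783 and 2 list Gm13363 alone, and their PECAM1+ minus PECAM1− differences ran from 0.03 to 0.09. In the PECAM1+ clones Ptp4a3 thus lay above the PECAM1− samples and Ptp4a2 below them, by only 0.07 at the closest. The shared probe sets that list Ptp4a1 lay between the PECAM1− samples.

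Among the CNNM genes, Cnnm2 differed most. CNNM2 is the family member whose loss causes renal magnesium wasting. Its level was 8.21 in parental cells, 8.92 in clone A1, 8.04 in A2, 7.93 in A3, 7.79 in A4, 8.04 in A5 and 8.47 in MDEC. All 4 PECAM1+ clones were below both PECAM1− samples, with clone A1 the highest of the 7 arrays. The difference of −0.62 ± 0.21 (SE) was made up of −0.26 ± 0.12 against parental cells and −0.97 ± 0.12 against clone A1, so its size depended on which PECAM1− sample was used. In order of level, the gaps from clone A1 to MDEC, to the parental line and to the highest PECAM1+ clones were each larger than the SD of 0.12 over the clones.

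Cnnm3 and Cnnm4 lie close together on the same chromosome. Cnnm3 was at 7.95 in the parental line, 7.71 in clone A1, 8.26 in A2, 7.95 in A3, 8.06 in A4, 8.15 in A5 and 7.43 in MDEC. The PECAM1+ clones lay 0.28 ± 0.12 (SE) above the PECAM1− samples, 0.16 ± 0.13 above parental cells and 0.40 ± 0.13 above clone A1. Clone A3 had the same value as parental cells, and the gaps from A2 down to A3 were each within the SD of 0.13. CNNM4 is a magnesium extruder of the basolateral membrane of epithelia. Cnnm4 was at 7.50 in the parental line, 7.82 in clone A1, 7.62 in A2, 7.61 in A3 and A4, 7.60 in A5 and 7.36 in MDEC. The clones lay between the PECAM1− samples, 0.10 ± 0.04 (SE) above parental cells and 0.21 ± 0.04 below clone A1. The SD of Cnnm4 over the clones was 0.01, with an identical value in A3 and A4. MDEC was the lowest of the 7 arrays for both genes.

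Cnnm1, which is expressed mainly in brain and testis, was at 5.94 in the parental line and in all 4 PECAM1+ clones, at 5.99 in clone A1 and at 6.06 in MDEC. The value was identical on 5 arrays, so no SD can be read for this gene. The clones were 0.00 from parental cells and −0.05 from clone A1, a difference of −0.03 ± 0.04 (SE) from both together, and the whole range was 0.12 log2 units. Trpm7 was at 8.18 in the parental line, 8.86 in clone A1, 8.46 in A2, 8.54 in A3, 8.70 in A4, 8.64 in A5 and 8.76 in MDEC. As with Cnnm4 and the probe sets of Ptp4a1, the clones lay between the PECAM1− samples, 0.41 ± 0.11 (SE) above parental cells and 0.28 ± 0.11 below clone A1. From clone A1 down to A2 each gap in the order was within the SD of 0.11, and parental cells were 0.28 below A2. MDEC lay between clone A1 and A4 in that order. Clone A1 (8.86) and A4 (8.70), the highest PECAM1+ clone, were further apart than the SD.

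Within B16F10, then, clone A1 had the highest level of Cnnm1, Cnnm2, Cnnm4 and Trpm7 and the lowest of Ptp4a3 and Cnnm3. It lay outside the range of the other 5 B16F10 arrays for 6 of the 7 genes with a probe set of their own, where 55.3% of all genes did so. Parental cells lay outside that range for 3 of 7, where 30.8% of all genes did so. Among the genes counted for clone A1, Cnnm1 was dim, below 6 on every B16F10 array, and clone A1 was only 0.05 above the value that the others shared. The sequences around the start sites of Cnnm2, Cnnm4 and Trpm7 are shown because these genes share the highest level in clone A1, and Cnnm1, with its range of 0.12, was left out. The sequences are those of RefSeq on GRCm38.p6, each from 250 bases before to 50 bases after the start, and 7 of the 8 genes had one. The gene without one was Ptp4a3. Capitals mark matches, on either strand, to GGGCGG (the GC box), CCAAT (the CCAAT box), CACGTG and CATGTG (E-box forms that MITF can bind), TGANTCA (AP-1) or TATAAA (the TATA box).
Cnnm2, chr19:46761359-46761658, plus strand: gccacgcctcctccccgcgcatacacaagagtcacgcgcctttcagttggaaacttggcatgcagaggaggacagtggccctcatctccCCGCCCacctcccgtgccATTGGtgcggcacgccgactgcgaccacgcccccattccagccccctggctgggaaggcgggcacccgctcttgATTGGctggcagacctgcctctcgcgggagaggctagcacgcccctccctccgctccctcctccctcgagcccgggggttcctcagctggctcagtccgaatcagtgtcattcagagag
Cnnm4, chr1:36471347-36471646, plus strand: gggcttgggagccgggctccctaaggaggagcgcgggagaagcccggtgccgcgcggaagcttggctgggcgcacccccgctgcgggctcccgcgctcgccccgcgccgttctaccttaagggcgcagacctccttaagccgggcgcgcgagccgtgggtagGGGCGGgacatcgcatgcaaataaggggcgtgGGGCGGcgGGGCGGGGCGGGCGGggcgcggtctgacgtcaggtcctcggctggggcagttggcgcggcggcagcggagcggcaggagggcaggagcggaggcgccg
Trpm7, chr2:126876212-126876511, minus strand: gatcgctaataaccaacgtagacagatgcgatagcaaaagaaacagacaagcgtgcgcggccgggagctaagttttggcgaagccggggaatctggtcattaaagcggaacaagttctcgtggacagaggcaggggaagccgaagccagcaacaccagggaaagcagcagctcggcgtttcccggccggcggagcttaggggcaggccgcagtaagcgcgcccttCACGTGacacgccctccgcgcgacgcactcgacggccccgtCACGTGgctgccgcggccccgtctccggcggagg
The Cnnm2 window held 1 match to GGGCGG and 2 to CCAAT, that of Cnnm4 5 to GGGCGG, with 3 bases in more than 1 of them, and that of Trpm7 2 to CACGTG. No motif of the 6 was found in all 3 windows. Of all 32851 promoter windows of that length, 35.7% held GGGCGG, 37.4% CCAAT, 7.15% CACGTG, 14.2% CATGTG, 7.81% TGANTCA and 13.6% TATAAA. Such matches describe the letters and were not tested against expression.

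Counted over the 7 genes, 3 had PECAM1+ clones that did not overlap the PECAM1− samples (Ptp4a3 higher, Ptp4a2 and Cnnm2 lower), where 16.4% of all genes tested had groups apart, 7.73% with the clones higher and 8.68% with them lower. The set was chosen with this contrast known, so nothing is read from this count or from the median absolute difference that follows. The median absolute difference of the 7 genes was 0.28, and that of all genes 0.10. The range over the 4 PECAM1+ clones had a median of 0.24 for the 7 genes and 0.22 for all genes.

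The endothelial sample gives the level of each gene in a cell type that normally carries PECAM1. With 1 MDEC array there is no test. A gene was counted by size, when MDEC differed by 4-fold or more from the average of the PECAM1+ and PECAM1− means and lay above or below every B16F10 array. By this size rule 0 of the 7 genes differed, where 4.73% of all genes did. With 2-fold in place of 4-fold, 2 of the 7 passed, where 13.3% of all genes did. Ptp4a3 was 1.78 log2 units (3.43-fold) and Ptp4a2 1.03 (2.04-fold) above B16F10. For Ptp4a3, MDEC was 0.72 above the mean of the PECAM1+ clones, 2.42 above parental cells and 3.25 above clone A1. For Ptp4a2 the clones were the furthest from MDEC and not the nearest: MDEC was 1.17 above their mean, 0.80 above parental cells and 0.97 above clone A1. Cnnm3 was 0.54 and Cnnm4 0.28 below B16F10. Cnnm1 (0.11 above) also lay outside the B16F10 range, while Cnnm2 and Trpm7 lay within it and the probe sets of Ptp4a1 differed by 0.01. In all, 3 of 7 genes were above every B16F10 array, where 26.5% of all genes were, and 2 were below, where 26.3% were. The leukocyte markers Cd53 and Cd68 were higher in the same array, and their part in these differences was not tested.

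**Figure D2:**
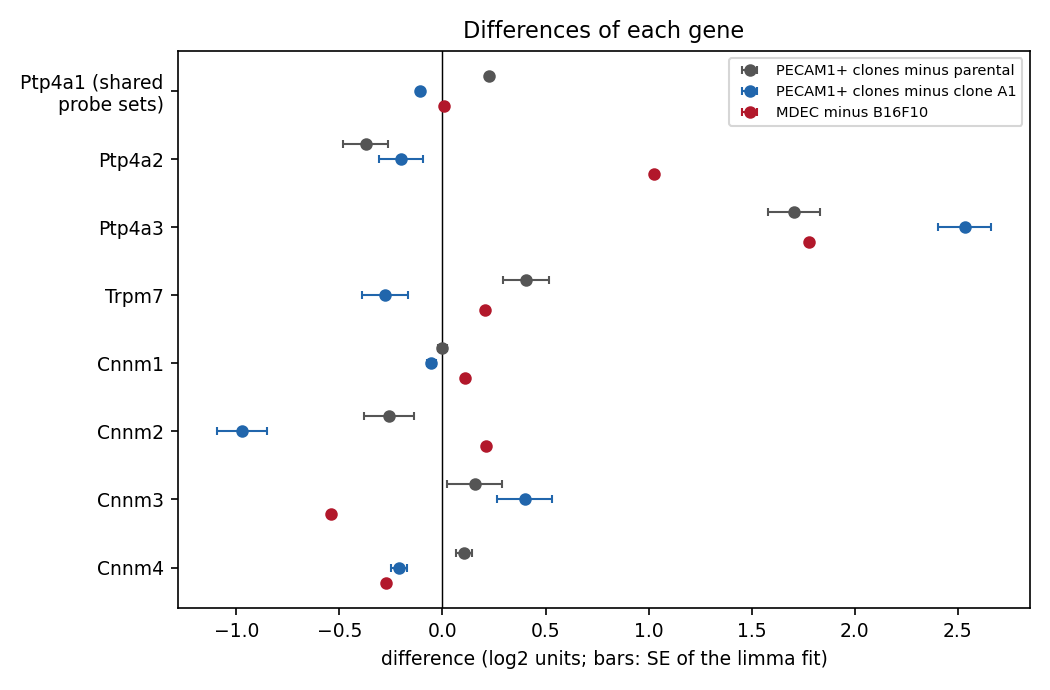
Differences in log2 units (horizontal axis) for each gene (vertical axis): the mean of the 4 PECAM1+ clones minus parental cells (grey), the same minus clone A1 (blue), and MDEC minus the mean of the B16F10 group means (red). Bars give the SE of the limma fit; the red points and the shared probe sets of Ptp4a1 have none. Ptp4a3 lies to the right in all 3, at 1.71, 2.53 and 1.78, while the grey and blue points of Trpm7, Cnnm4 and Ptp4a1 lie on opposite sides of 0.

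The genes next to Ptp4a3 were read to see whether its difference extended along the chromosome. Of the 5 measured genes on each side, 6 of 10 were higher and 4 lower in the PECAM1+ clones, with a median difference of 0.02, against 0.00114 over all genes tested. The limma test called 0 of them (lowest adjusted p = 0.434), where 0.0100% of all genes were called, and 1 had an unadjusted p under 0.05, where 9.18% of all genes did. Before Ptp4a3 came Ago2 (0.23 ± 0.11, SE), Mir151 (−0.01 ± 0.13), Dennd3 (−0.37 ± 0.26), Slc45a4 (−0.04 ± 0.09) and Gpr20 (0.15 ± 0.08). After it came Mroh5 (−0.10 ± 0.11), Adgrb1 (0.08 ± 0.07), Mroh4 (0.01 ± 0.04), Arc (0.02 ± 0.05) and Jrk (0.14 ± 0.04). Several of these genes were dim in B16F10. Mir151, Mroh4 and Jrk were below 6 on every B16F10 array. Gpr20, Adgrb1 and Arc were at 6.08 to 6.44, near the array medians of 6.12 to 6.18. A shared shift may not be visible in genes this dim. The largest absolute difference among the 10, that of Dennd3, was 0.37. Clone A1 was the array apart: Dennd3 was at 6.64 in the parental line, 7.51 in clone A1 and 6.52 to 6.89 in the PECAM1+ clones. The clones differed from clone A1 by −0.81 ± 0.17 (SE) and from parental cells by 0.06 ± 0.17. Against clone A1 alone limma called 1 of the 10, Dennd3, at an adjusted p under 0.05, where 20.5% of all genes were called, and against parental cells alone it called 0. The 10 differences ran from −0.10 to 0.37 against parental cells and from −0.81 to 0.25 against clone A1. With 10 genes on each side the median was also 0.02. Over the 747 other measured genes of the chromosome it was 0.03. The PECAM1+ mean exceeded the PECAM1− mean for 452 of these 747 and fell short of it for 290. For all 19938 genes the same counts were 10125 and 9773. Every PECAM1+ clone exceeded both PECAM1− samples for 87 of the 747 and fell under both for 25, against 7.73% and 8.68% of all genes. The chromosome thus leaned further towards higher levels in these clones than all genes did. The limma test called 0 of the 747, where 0.0100% of all genes were called. With so few calls anywhere, that count cannot speak to the tilt. Any link of this tilt to Ptp4a3 was not tested.

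**Figure D3:**
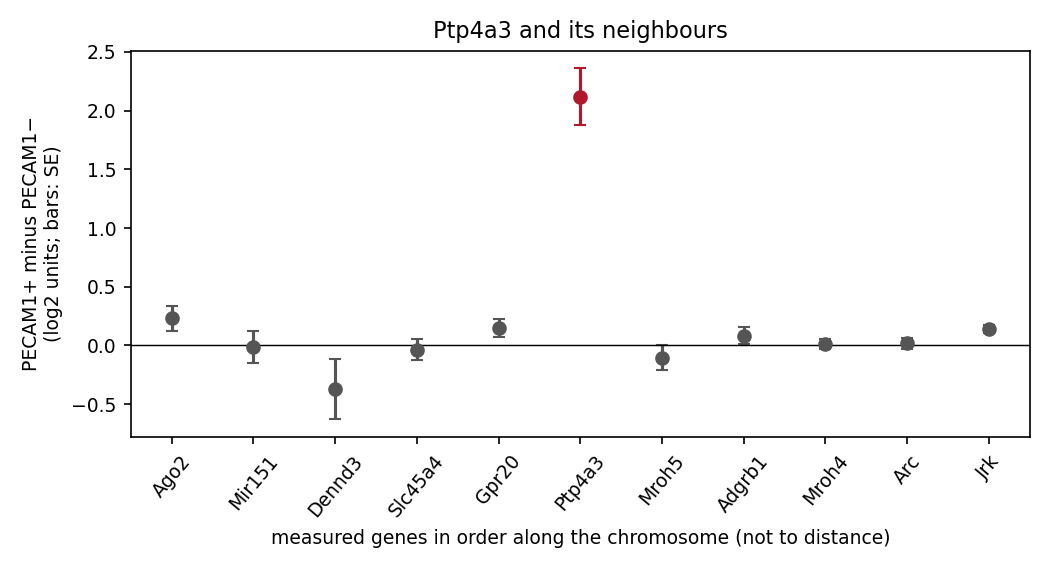
PECAM1+ minus PECAM1− difference (vertical axis, log2 units) of Ptp4a3 (red) and of the 5 measured genes on either side (grey), in their order along the chromosome (horizontal axis, not to distance). Bars give the SE of the limma fit. Ptp4a3 is at 2.12, and its neighbours lie between −0.37 and 0.23.

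The genes whose pattern was most like that of Ptp4a3 were sought over the 6 B16F10 arrays by Pearson's r, as a description. A total of 2216 genes with a range of at least 1 log2 unit was compared, and these arrays share the PECAM1 labels and the outlying clone A1. Of the 2216 genes, 20 had r over 0.95 and 26 under −0.95, so the genes named here are not alone in such values. The highest r were those of Pkd1l1 (0.99), Ece1 (0.99), Fbxw18 (0.98), Alg5 (0.97), Idi1 (0.97) and Spry1 (0.97). The lowest were those of Arhgef5, Bscl2, Adam22 and Morc1 (all −0.99). Pkd1l1 had 6.05 in the parental line, 5.21 in clone A1 and 7.63 to 8.07 in the PECAM1+ clones. Ece1, the endothelin-converting enzyme gene, was at 6.93, 6.12 and 8.14 to 8.32. The likeness did not extend to MDEC for every gene: Ece1 was at 11.47 there, above B16F10 as Ptp4a3 was, while Pkd1l1 was at 6.23, within the B16F10 range, and Idi1 at 7.32, below every B16F10 array.

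Other genes of magnesium transport were measured for all 20 members of the list. They encode carriers (Slc41a1 to Slc41a3), NIPA proteins, mitochondrial Mrs2, the Trpm6 channel, MMgT proteins, the oligosaccharyltransferase subunits Magt1 and Tusc3, and tight junction claudins. In the PECAM1+ clones 12 were higher and 8 lower than in the PECAM1− samples, with a median difference of 0.07, and 50.8% of all genes were higher. The limma test called 0 (lowest adjusted p = 0.351), where 0.0100% of all genes were called, and 1 of 20 had an unadjusted p under 0.05, where 9.18% of all genes did. The largest differences were those of Nipal3 (−0.77 ± 0.48, SE), Slc41a3 (−0.59 ± 0.34) and Nipa1 (0.50 ± 0.23). Nipal3 and Slc41a3 followed clone A1. Slc41a3, which encodes a mitochondrial magnesium carrier, had a level of 8.72 in the parental line, 9.98 in clone A1 and 8.75 to 8.81 in the PECAM1+ clones. Nipal3 was at 8.13, 9.65 and 7.63 to 8.49. Nipa1 was low in parental cells instead, at 7.32, against 7.93 in clone A1 and 7.93 to 8.39 in the clones. The 1 gene with an unadjusted p under 0.05 was Tmem94, named after its values were seen, with 8.92 in the parental line, 8.82 in clone A1 and 8.37 to 8.51 in the clones (−0.43 ± 0.08, SE).

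Of the 7 other TRPM channel genes, 3 were higher and 4 lower, with a median of −0.05, and limma called 0 (lowest adjusted p = 0.537), with 0 at an unadjusted p under 0.05, against 0.0100% and 9.18% of all genes. Trpm4, the gene of a calcium-activated channel, had 6.52 in the parental line, 7.50 in clone A1 and 6.18 to 6.48 in the clones (−0.68 ± 0.28, SE). Trpm6, the closest relative of Trpm7, was at 4.90, 4.67 and 4.49 to 4.69 (−0.16 ± 0.09), and Trpm3 at 5.13, 5.20 and 5.20 to 5.40 (0.08 ± 0.07). Both genes were dim, below 6 on every array, so their levels may be background.

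Regulators and reported partners of PRL phosphatases were measured for 17 of 18 genes, and Trp53 was not analysed here. They were higher for 11 and lower for 6, with a median of 0.06, and limma called 0 (lowest adjusted p = 0.404), with 3 at an unadjusted p under 0.05, against 0.0100% and 9.18% of all genes. The largest differences were those of the collagen-binding integrin gene Itga1 (0.63 ± 0.28, SE), the ezrin gene Ezr (−0.54 ± 0.14) and the Src-inhibiting kinase gene Csk (0.39 ± 0.22). Ezr had 9.35 in the parental line, 9.64 in clone A1 and 8.80 to 9.15 in the clones, so that its groups did not overlap. Nor did those of Pcbp1 (11.74, 11.70 and 11.43 to 11.55) and Rhoa (12.43, 12.40 and 12.51 to 12.62). With Ezr these were the 3 genes with an unadjusted p under 0.05, Pcbp1 and Rhoa being named after their values were seen. The groups were apart for 1 higher and 2 lower genes of the list, against 7.73% and 8.68% of all genes. Itga1 had 7.09 in the parental line, 6.28 in clone A1 and 7.09 to 7.65 in the clones. Csk had 9.63 in the parental line, 8.96 in clone A1 and 9.54 to 9.93 in the clones.

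A list of related dual-specificity phosphatases held 27 measured genes. They were higher for 17 and lower for 10, with a median of 0.13, and limma called 0 (lowest adjusted p = 0.391), with 6 at an unadjusted p under 0.05, against 0.0100% and 9.18% of all genes. Dusp8 (−1.08 ± 0.56, SE), Dusp16 (−0.82 ± 0.44) and Cdkn3 (0.75 ± 0.69) had the largest differences. Dusp8 and Dusp16 inactivate stress-activated MAP kinases. Dusp8 had 7.41 in the parental line, 9.51 in clone A1 and 7.22 to 7.47 in the clones, and Dusp16 at 9.04, 10.60 and 8.71 to 9.23. Cdkn3, a phosphatase gene of the cell cycle, was at 8.64, 6.01 and 8.004 to 8.22. For all 3, clone A1 was the array apart from the others.

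Over the 4 lists, 0 of 70 genes were called against both PECAM1− samples or against parental cells alone, where 0.0100% of all genes were called in each, and 21 were called against clone A1 alone, 10 higher and 11 lower, where 9.33% and 11.2% of all genes were. In MDEC, 4 of the 70 genes passed the 4-fold rule, where 4.73% of all genes did. They were Dusp10 (5.01-fold), Dusp2 (4.33-fold) and Dusp1 (4.09-fold) above B16F10, and Cdkn3 (4.69-fold) below. None of the 20 magnesium transport genes passed it.

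**Figure D4:**
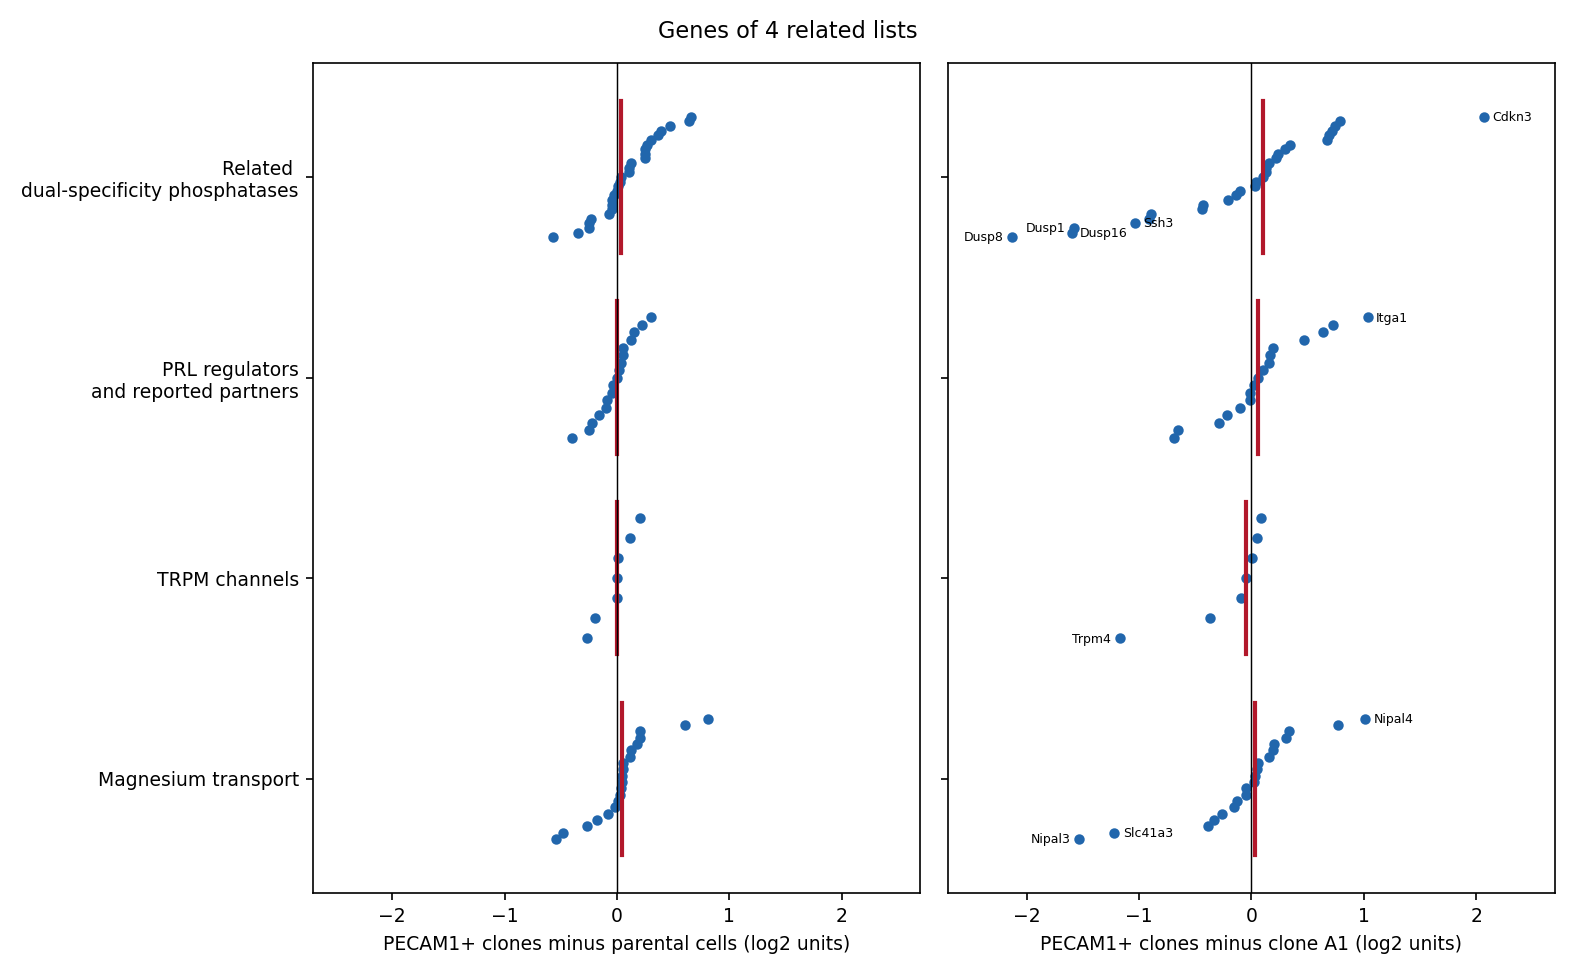
Differences in log2 units (horizontal axes) of each gene of 4 lists (vertical axis): PECAM1+ clones minus parental cells on the left and minus clone A1 on the right, on the same scale. Each point is a gene, red lines are list medians, and genes at least 1 unit from 0 are named. Such genes appear only on the right: Cdkn3 lies at 2.07 and Dusp8 at −2.13 against clone A1.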

How the data were processed

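The authors deposited log2 values, and Partek is the program that the submitters' processing notes name. Its version, the normalization, the summarisation and the build are not given in the sources. The log2 scale was read from the values (1.39 to 13.5, array medians 6.12 to 6.18). No detection calls were used, so that a level near background cannot be told from a low one. Precision is limited by the number of arrays.

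Of 35557 probe sets, 21789 had 1 gene symbol, 1621 several and 12147 none. By Entrez identifier 21698 matched a GRCm38.p6 gene table, used for names and gene order only, and 0 symbols changed. A gene was read from its probe set of highest mean level (999 genes had several), which left 19938 genes. Groups followed the PECAM label. The 6 B16F10 arrays were fitted with limma 3.58.1 under R 4.3.3 (lmFit, eBayes with trend, two-sided), with Benjamini-Hochberg adjustment over all genes and a threshold of 0.05, after a check on simulated data. Differences are PECAM1+ minus PECAM1−. The members and gene lists were chosen with earlier results of these data known. Named genes were the members, Pecam1, the 3 largest absolute differences and any called gene of each list, the neighbours of Ptp4a3, the 6 highest and 4 lowest r with Ptp4a3 (predicted genes, olfactory and vomeronasal receptors and small RNAs left out), and genes past the size rule in MDEC. Other normalizations, filters, weights and each left-out array were tried.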

Additional observations from a re-analysis of the deposited data

Results flagged for a closer look

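In 4 of 19 genes checked, the 4 PECAM1+ clones held 1 value far from the other 3, relative to their range, by Dixon's criterion. Chance flags about 1 in 20 groups of normal values, a rate that need not hold where values repeat exactly. Ptp4a3 was at 9.89 in clone A2, with the other 3 clones at 9.64. Slc41a3 was at 8.81 in clone A4 and at an identical 8.75 in the other clones. Trpm3 was at 5.40 in clone A4, with 5.20 in the others. Trpm6 was at 4.49 in clone A2, with 4.66 to 4.69 in the others. Identical values on arrays other than the one that stood apart occurred for all 4 genes. They were those of Ptp4a3 (clones A3 and A4), Slc41a3 (A2, A3 and A5), Trpm3 (A1, A2 and A5) and Trpm6 (A1 and A4). The part of identical values in these results was not tested.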

How the results depend on the processing

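The number of genes called in the whole table was 2, and it became 7 with quantile normalization, 6 with median centring, 5 without dim genes (mean under 6), 5 with robust eBayes and 1 with array weights. Leaving out 1 array gave 1 to 4089, the latter without parental cells. The difference of Ptp4a3 kept its direction in all 13 alternatives, between 2.09 and 2.12 with all 6 arrays and between 1.71 (without clone A1) and 2.53 (without parental cells) with 1 left out. Of the 6 other genes with a probe set of their own, 2 were higher in the PECAM1+ clones, also under every alternative with all 6 arrays, and 1 to 3 with an array left out. Cnnm1 is absent from the table without dim genes. Ptp4a2, Cnnm2 and Cnnm3 kept their directions throughout, whereas Cnnm4 turned from −0.05 to 0.10 without clone A1 and Trpm7 from 0.06 to −0.28 without parental cells. Genes of the 4 lists were called in 0 to 21 cases with 1 array left out, the 21 without parental cells, and in 0 with all 6 arrays. The median of the neighbours of Ptp4a3 stayed between −0.01 and 0.05. With 2-fold in place of 4-fold, 2 genes passed the size rule in MDEC, and 0 under the other alternatives. The cause of these changes was not tested. No paired analysis was possible because the labels give the groups no shared replicate numbers.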
